A study of Mus musculus with 4 samples.

Results

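The surface markers of mesenchymal stem cells described here are 10 genes, Ly6a, Thy1, Eng, Nt5e, Cd44, Vcam1, Alcam, Mcam, Pdgfra and Pdgfrb, taken by symbol because their proteins are antigens used to define mouse mesenchymal stem cells. All 10 were among the 21881 gene symbols of the table. The cells were 2 immortalised lines, clone 12 and clone 6, each monoclonal, of C57BL/6 mouse mesenchymal stem cells with a floxed but functional Dicer (Dicer f/f). Each line carried either a pMMP-puro retrovirus for Flag-HA-NR6A1 (NR6A1, n = 2) or the same puromycin-resistance virus with no insert (vector, n = 2), so there was 1 library of polyadenylated RNA for each line and virus. The receptor NR6A1 (GCNF) has no known ligand, represses genes in early embryos and germ cells, and was driven here by a retrovirus in cells that held little of it. As a model the design is limited to 2 immortalised clones, which the labels call independent, with no repeat of a culture stated.

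Mesenchymal stem cells of the marrow have no single defining antigen, and are recognised by a set of surface proteins together with the lack of blood and endothelial ones. Some of the set are proteins held in the membrane by a lipid anchor (Sca-1, encoded by Ly6a, CD90, encoded by Thy1, and CD73, encoded by Nt5e). Others are adhesion molecules (CD44, VCAM-1, ALCAM and MCAM) or growth factor receptors (endoglin, encoded by Eng, and the PDGF receptors alpha and beta). Their levels differ between mouse strains, isolates and culture conditions, and Sca-1 and PDGF receptor alpha together mark a primitive stromal cell in mouse marrow.

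Levels are given as FPKM, fragments scaled by transcript length and sequencing depth, which can be compared between genes. Nr6a1 itself stood at 598 FPKM in the NR6A1 library of clone 12 and 783 in that of clone 6, against 2.80 and 4.18 FPKM in the vector libraries. Virus and endogenous transcripts were not told apart in these values. The steps between low values put the libraries at about 20.5 and 21.0 M reads with NR6A1 (clone 12 and clone 6) and 23.0 and 24.2 M reads with vector (M, 1e+06). The number of genes above 0 ran from 15718 to 15979.

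The levels are grouped here into 3 tiers for description only. Between neighbours in mean level, the ranges were apart only for Mcam above Alcam and for Nt5e above Thy1. Cd44, Eng and Pdgfrb were abundant in both lines and Ly6a and Vcam1 in clone 12, Mcam, Alcam, Pdgfra and Nt5e were lower, and Thy1 was at or next to 0. In clone 6 with NR6A1, Ly6a (9.31 FPKM) lay below Vcam1 (20.7 FPKM) and Mcam (18.6 FPKM). Cd44, the hyaluronan receptor, had 73.8 and 48.6 FPKM in the NR6A1 libraries of clone 12 and clone 6, against 69.5 and 50.1 FPKM in the vector libraries. Eng, a co-receptor of the TGF-beta family, had 43.5 and 55.4 FPKM with NR6A1, against 47.5 and 53.9 FPKM with vector. Pdgfrb, which encodes a receptor of PDGF-B and PDGF-D, had 43.5 and 56.3 FPKM with NR6A1, against 44.1 and 46.3 FPKM with vector. These 3 genes lay at percentiles of 87.2 to 92.7 among all symbols and crossed each other in rank, since none was above the next in more than 2 of the 4 libraries. Nt5e, the enzyme that makes adenosine from AMP outside the cell, was the lowest of those expressed, at 2.23 and 4.0 FPKM with NR6A1 and 2.10 and 2.92 FPKM with vector. It was below Pdgfra in all 4 libraries, while Alcam and Pdgfra exchanged places.

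**Figure D1:**
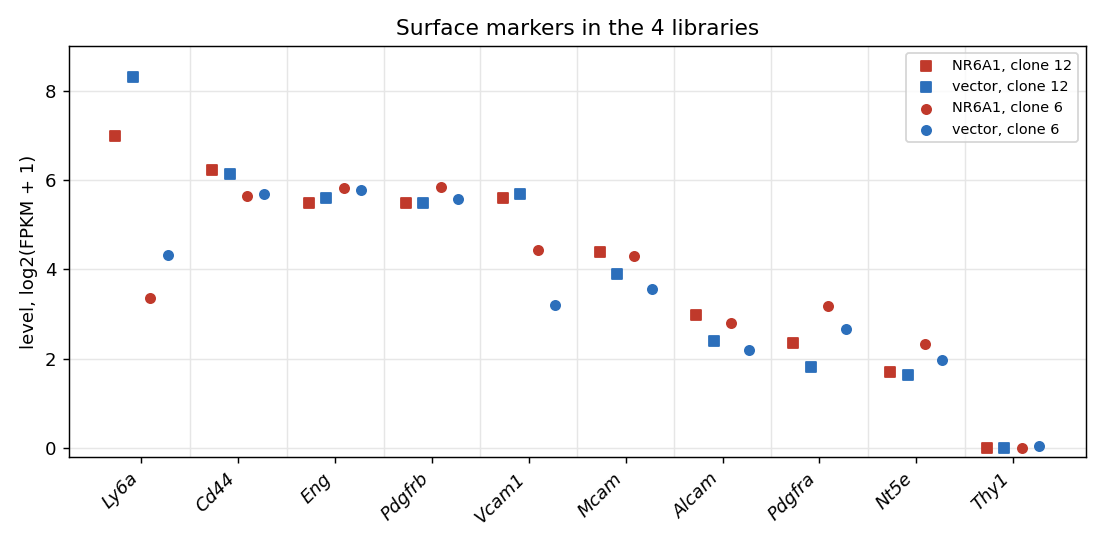
Level of each marker, as log2(FPKM + 1) on the vertical axis, in the NR6A1 (red) and vector (blue) libraries of clone 12 (squares) and clone 6 (circles), 1 point per library, with genes in order of their mean. Ly6a spans 4.95 log2 units over the 4 libraries and Vcam1 2.50, while Thy1 lies at 0.

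Thy1, which encodes CD90 and is a standard marker of mouse and human mesenchymal stem cells, went against the label. It was listed at 0 FPKM in both NR6A1 libraries and in the vector library of clone 12, and had 0.0297 FPKM in the vector library of clone 6. At the inferred depth that value stands for about 1.10 reads. The table also lists at 0 some genes that most cells use, so a listed 0 may mean not quantified in that library. Thy1 was quantified in the vector library of clone 6. Thy1 was the 1 marker that did not pass the filter at a mean of 1 FPKM, so 9 of the 10 entered the tests.

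Other antigens of marrow stroma were partly present. Of 20 further stromal surface antigens, 11 had a mean of at least 1 FPKM, led by the tetraspanin gene Cd63 (587 and 922 FPKM with NR6A1, 519 and 830 FPKM with vector, clone 12 and clone 6), the integrin subunit gene Itgb1 and the tetraspanin gene Cd9. Lepr, the leptin receptor that marks stroma around marrow vessels, did not exceed 0.0703 FPKM, and Ngfr, Cspg4, Bst1 and Dpp4 were at 0.0696 FPKM or less. The blood cell markers were near 0: of 16 in the table, 14 stayed under 1 FPKM in every library, among them Ptprc (CD45) at 0.0234 FPKM or less, Itgam (CD11b) at 0.0183 or less, and Cd3e and Cd4 listed at 0. All 9 endothelial markers were at 0.141 FPKM or less. The summed level of the blood markers was 16.6 and 6.45 FPKM with NR6A1 in clone 12 and clone 6, against 22.7 and 7.66 FPKM with vector. Most of it came from Cd14, a co-receptor for bacterial lipopolysaccharide, and Cd34, a sialomucin that mouse fibroblasts can also carry. Cd34 followed the clone, at 9.99 and 0.131 FPKM with NR6A1 and 13.8 and 0.116 FPKM with vector.

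The comparison of NR6A1 with vector asked which genes differ when this receptor is raised in these cells. Among the markers the clearest difference was a lower Ly6a in both clones, and Mcam, Alcam and Pdgfra were higher in both by similar amounts. No marker passed the threshold over all genes tested (limma adjusted p under 0.05), which 0.0353% of the 11346 genes passed. An unadjusted p under 0.05 was reached by 4 of the 9 markers, Ly6a, Mcam, Alcam and Pdgfra, and by 8.48% of all genes. With NR6A1, 4 markers were higher in both clones (28.9% of all genes were) and 1 was lower in both (29.4%), while the 4 remaining ones had opposite signs in the 2 clones. In these bulk libraries fewer cells with a transcript and less of it per cell cannot be told apart.

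Ly6a, which encodes the stem cell antigen Sca-1, had 125 FPKM with NR6A1 and 317 FPKM with vector in clone 12, and 9.31 FPKM with NR6A1 and 19.0 FPKM with vector in clone 6. In each line the NR6A1 library held less than its vector library, at 0.395 times the vector value in clone 12 and 0.490 times in clone 6. Pooled over clones the groups overlapped, because the lines themselves lay so far apart. On the log2(FPKM + 1) scale, on which differences of low genes come out too small, the difference was -1.14 ± 0.12 (SE), with -1.33 in clone 12 and -0.96 in clone 6. Its limma adjusted p was 0.169 over all genes tested. Without the short RNA genes, a few reads of which give very large FPKM, Ly6a passed (limma adjusted p = 0.0304), among 0.457% of the genes then tested. Over all alternatives with 4 libraries its adjusted p ran from 0.0304 to 1, reached without the clone term.

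Mcam, which encodes the adhesion molecule CD146 of pericytes and marrow stroma, had 20.1 and 18.6 FPKM in the NR6A1 libraries of clone 12 and clone 6, against 13.8 and 10.7 FPKM in the vector libraries. Alcam, which encodes the adhesion molecule CD166, had 6.87 and 5.91 FPKM with NR6A1, against 4.24 and 3.58 FPKM with vector. For these 2 genes both NR6A1 libraries were above both vector libraries, as for 9.68% of all genes tested. Pdgfra, which encodes a receptor of PDGF-A and PDGF-C among others, had 4.11 FPKM with NR6A1 and 2.49 FPKM with vector in clone 12. In clone 6 it had 7.99 FPKM with NR6A1 and 5.35 FPKM with vector. Here the higher library of each line was the one with NR6A1, but the vector library of clone 6 was above the NR6A1 library of clone 12. The log2 differences were 0.62 ± 0.10 for Mcam, 0.59 ± 0.10 for Alcam and 0.53 ± 0.11 for Pdgfra (SE), and the median over all genes tested was 0.0010. Their limma adjusted p values were 0.291, 0.325 and 0.383, and without short RNA genes 0.106, 0.154 and 0.207. These last values were the lowest of all alternatives with 4 libraries, and the highest was 1, without the clone term.

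**Figure D2:**
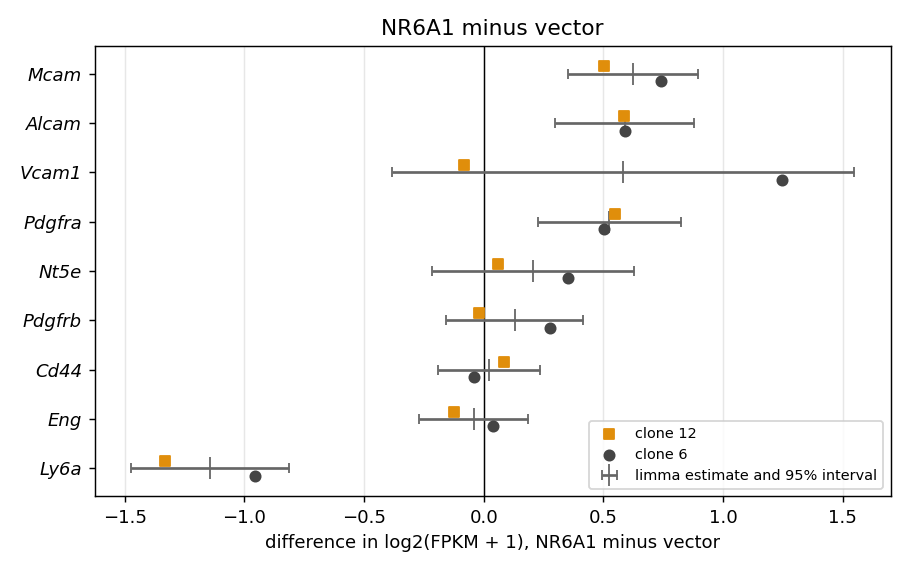
Difference in log2(FPKM + 1), NR6A1 minus vector, on the horizontal axis for the 9 markers tested, in clone 12 (orange squares) and clone 6 (dark circles), with the limma estimate and its 95% interval (bars). Ly6a lies below 0 in both clones, Mcam, Alcam and Pdgfra lie above 0 in both with intervals clear of 0, and the points of Vcam1 are at -0.08 and 1.25.

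Promoters of 6 markers were in the RefSeq table (GRCm38.p6, 250 bases before to 50 after a start), and those of Alcam, Mcam and Pdgfra are shown because these 3 were higher with NR6A1 in both clones at an unadjusted p under 0.05. Capitals mark GC boxes, the letters GGGCGG on either strand.
Alcam, chr16:52453032-52453331, minus strand: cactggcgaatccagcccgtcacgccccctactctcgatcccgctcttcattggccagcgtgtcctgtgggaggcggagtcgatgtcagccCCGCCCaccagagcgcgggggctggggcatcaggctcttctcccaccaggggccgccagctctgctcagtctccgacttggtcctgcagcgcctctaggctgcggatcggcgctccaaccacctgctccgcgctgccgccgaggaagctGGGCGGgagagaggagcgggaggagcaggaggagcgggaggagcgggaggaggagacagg
Mcam, chr9:44134408-44134707, plus strand: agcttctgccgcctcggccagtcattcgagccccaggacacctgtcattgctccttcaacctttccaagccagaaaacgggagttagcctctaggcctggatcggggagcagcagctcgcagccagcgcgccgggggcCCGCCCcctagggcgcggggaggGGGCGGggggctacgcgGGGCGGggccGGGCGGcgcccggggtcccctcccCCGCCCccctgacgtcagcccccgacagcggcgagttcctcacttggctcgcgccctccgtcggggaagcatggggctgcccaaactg
Pdgfra, chr5:75152001-75152300, plus strand: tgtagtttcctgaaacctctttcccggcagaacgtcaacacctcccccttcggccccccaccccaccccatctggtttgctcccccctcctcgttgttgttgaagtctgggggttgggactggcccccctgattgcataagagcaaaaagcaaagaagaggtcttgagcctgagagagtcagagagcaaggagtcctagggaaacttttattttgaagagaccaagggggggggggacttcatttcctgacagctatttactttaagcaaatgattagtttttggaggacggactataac

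The Mcam promoter held 5 GC boxes, at -112, -89, -72, -62 and -38 from the start, the Alcam promoter 2, at -159 and -10, and the Pdgfra promoter none. The Nt5e promoter held 4, the Cd44 promoter 1 and the Eng promoter none, so 4 of the 6 held a GC box. GC boxes occurred in 35.7% of 32851 promoters of this length. The extended half-site TCAAGGTCA, which NR6A1 is known to bind, was searched on both strands, as were its core AGGTCA and the direct repeat of that core without a spacer. The core lies inside both longer motifs. None of the 6 marker promoters held any of them, and among all promoters 0.423% held the extended half-site, 16.3% the core and 0.00609% the repeat. A site outside these 300 bases would not have been seen. The promoters of Ly6a, Thy1, Vcam1 and Pdgfrb were not available and were not searched. The search therefore says nothing of Ly6a, the marker that was lower with NR6A1 in both clones.

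Vcam1, the adhesion molecule through which stroma holds blood cells that carry the integrin VLA-4, had a higher value with NR6A1 in clone 6 and a similar one in clone 12. In clone 6 it had 20.7 FPKM with NR6A1 and 8.14 FPKM with vector, a ratio of 2.54. In clone 12 it had 47.7 FPKM with NR6A1 and 50.6 FPKM with vector, a ratio of 0.942. The vector library of clone 6 thus held the lowest value, and both clone 6 libraries lay below both clone 12 libraries. The combined log2 difference of 0.58 ± 0.34 (SE) did not pass (limma adjusted p = 0.657, 95% interval -0.38 to 1.55). With 1 library per line and virus, whether the NR6A1 difference of Vcam1 varied between the lines could not be tested. Interferon-stimulated genes, a response program against viruses, had a like pattern. Their median log2 difference with NR6A1 was -0.16 in clone 12 and 1.23 in clone 6 over 14 genes tested, and the summed level of the 15 in the table was 1427 and 467 FPKM with NR6A1 in clone 12 and clone 6, against 1670 and 220 FPKM with vector. None of them was called with NR6A1, and their part in the value of Vcam1 was not tested.

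**Figure D3:**
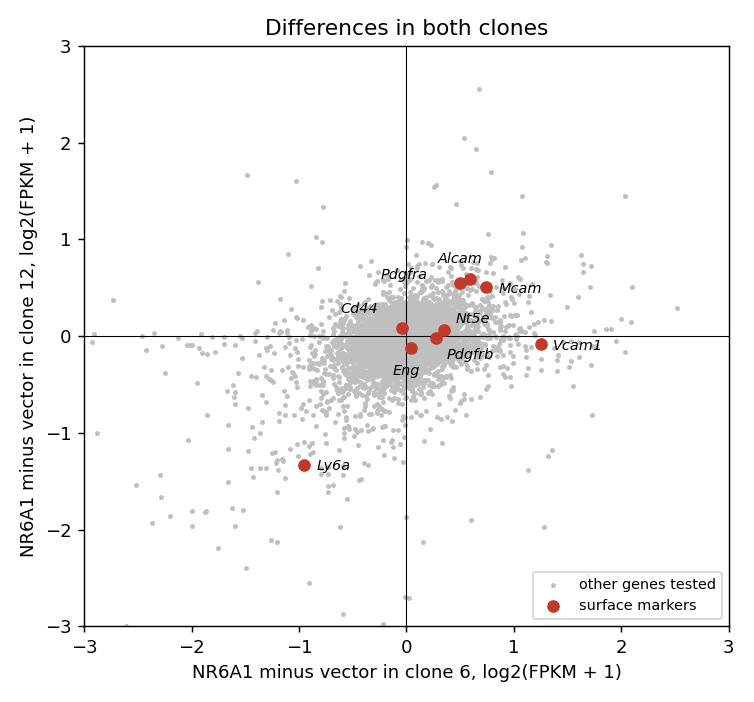
NR6A1 minus vector in clone 6 (horizontal axis) and in clone 12 (vertical axis), both as differences in log2(FPKM + 1), for the 9 markers (red) and the other genes tested (grey) without Nr6a1 and short RNA genes. The axes hold 11139 genes and leave out 10. Ly6a sits in the lower left, Mcam, Alcam and Pdgfra in the upper right, and Vcam1 to the right at a height near 0.

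The markers left showed small differences with NR6A1. Cd44 differed by 0.02 ± 0.08 on the log2 scale (SE, 95% interval -0.19 to 0.24), Eng by -0.04 ± 0.08 (-0.27 to 0.18) and Pdgfrb by 0.13 ± 0.10 (-0.16 to 0.42), each with opposite directions in the clones. Nt5e was higher in both, by 0.06 in clone 12 and 0.35 in clone 6, with an interval of -0.21 to 0.63. These intervals give the range of differences that the fit of 2 lines leaves possible, and they are not limits of detection. Larger differences, such as that of Mcam, did not pass the adjusted threshold either.

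Between the lines, Ly6a, Vcam1 and Cd44 were higher and Pdgfra lower in clone 12 than in clone 6. These 4 of the 9 tested passed limma's adjusted threshold of 0.05, 3 higher (11.5% of all genes) and 1 lower (10.5%), against 21.9% of all genes in either direction. The values of the lines did not overlap for 3 markers with clone 12 higher (37.7% of all genes), which were Ly6a, Vcam1 and Cd44. They did not overlap either for 4 with clone 12 lower (30.3%), which were Pdgfra, Nt5e, Eng and Pdgfrb.

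Ly6a was 13.5 times as high in clone 12 as in clone 6 in the NR6A1 libraries and 16.7 times in the vector libraries. The log2 difference between clones was 3.80 ± 0.12 (SE, limma adjusted p = 0.00362), and that line difference exceeded the difference between viruses in either line. Vcam1 was 2.30 times as high in clone 12 with NR6A1 and 6.21 times with vector, a combined log2 difference of 1.83 ± 0.34 (limma adjusted p = 0.0393). Cd44 was 1.52 and 1.39 times as high, a difference of 0.53 ± 0.08 (limma adjusted p = 0.0273). Pdgfra stood at 0.514 times the clone 6 value with NR6A1 and 0.465 times with vector, a difference of -0.84 ± 0.11 (limma adjusted p = 0.0237). So the line with more Ly6a RNA was the line with less Pdgfra RNA, with either virus. These values are of RNA and not of surface protein.

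Among the markers that did not pass between lines, Nt5e differed by -0.48 ± 0.15 and Eng by -0.26 ± 0.08 on the log2 scale (SE, limma adjusted p = 0.0941 and 0.0937). Mcam, Alcam and Pdgfrb differed by 0.23 ± 0.10, 0.19 ± 0.10 and -0.22 ± 0.10 (limma adjusted p = 0.170, 0.245 and 0.198). The call of Vcam1 was lost with no filter, quantile normalization, no variance trend, a robust prior or no virus term (limma adjusted p = 0.0563 to 0.206), and that of Pdgfra with no filter or no virus term (0.0866 and 0.104). The calls of Ly6a and Cd44 were lost with no filter (limma adjusted p = 0.0798 and 0.0804). With 1 library left out and no virus term, limma called 1 marker without the NR6A1 library of clone 6 (Vcam1, adjusted p = 0.0192) and none without the others, where Ly6a had adjusted p of 0.0911 (NR6A1 library of clone 12 left out), 0.0813 (clone 6 vector library left out) and 0.161 (clone 12 vector library left out).

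**Figure D4:**
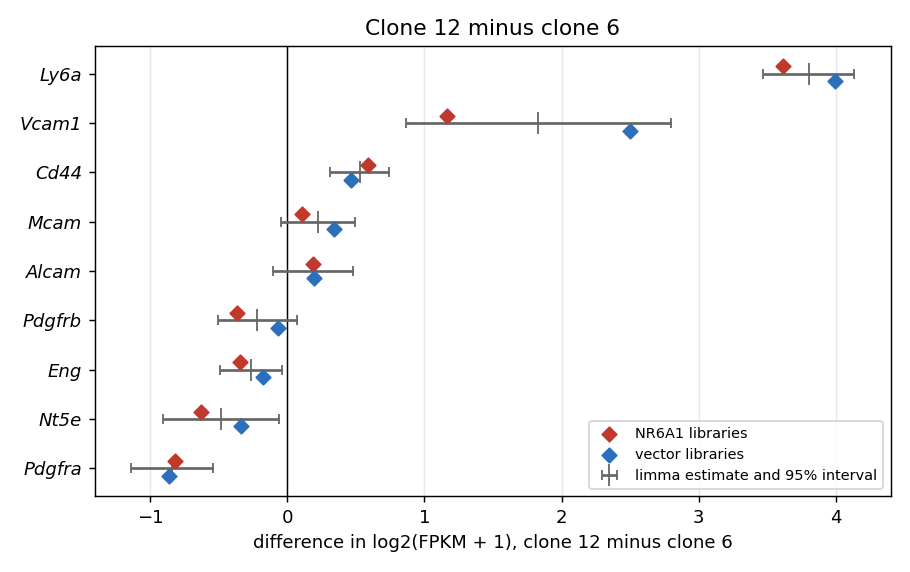
Difference in log2(FPKM + 1), clone 12 minus clone 6, on the horizontal axis for the 9 markers tested, in the NR6A1 libraries (red) and the vector libraries (blue), with the limma estimate and its 95% interval (bars). Ly6a lies near 3.80, Vcam1 spreads between 1.16 and 2.50, and Pdgfra lies at -0.82 and -0.86.

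Genes that work with the markers were listed by role. In the Ly6 family, small lipid-anchored proteins of which Ly6a is 1, 7 of 18 genes were tested. With clone 12 against clone 6, 5 were called higher (Ly6a, Ly6c1, Ly6c2, Ly6e and Ly6i) and 1 lower (Cd59a, an inhibitor of complement), where 11.5% of all genes were called higher and 10.5% lower, with a median log2 difference of 2.07 against 0.04 over all genes tested. Ly6c1, an antigen of monocytes and endothelium, had 54.9 and 8.59 FPKM with NR6A1 in clone 12 and clone 6, against 150 and 13.5 FPKM with vector. Ly6c2 had 12.8 and 1.69 FPKM with NR6A1, against 34.2 and 3.04 FPKM with vector. In both clones these 2 genes were lower in the NR6A1 library, like Ly6a, by -1.01 ± 0.22 and -0.97 ± 0.21 on the log2 scale (SE, limma adjusted p = 0.413 and 0.412). Ly6e, a family member induced by interferon, had 279 and 80.2 FPKM with NR6A1, against 362 and 70.2 FPKM with vector. Of the longest Ly6a transcript, 191 bases matched Ly6c1 at 92.1% identity, and no other gene matched it at 95% or more over 100 bases. Reads of Ly6c1 and Ly6c2, which are close copies, may have been split between them.

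All 14 interferon-stimulated genes tested were called higher in clone 12 than in clone 6, beside Ly6a, Ly6e and Vcam1, against 11.5% of all genes, with a median log2 difference of 2.48. Among them were Ifit1, Ifit2, Ifit3, Bst2, Oas1a, Oasl2, Mx2, Usp18, Rsad2, Gbp2 and Gbp3. Irf7, a transcription factor of the interferon response, had 66.4 and 11.0 FPKM with NR6A1 in clone 12 and clone 6, against 69.1 and 3.35 FPKM with vector. Isg15, a ubiquitin-like modifier, had 302 and 83.6 FPKM with NR6A1, against 347 and 30.9 FPKM with vector. Vcam1 followed this order of the libraries, while Ly6a was lowest in the NR6A1 library of clone 6, where all 14 were above the vector library of that line. What part such genes have in the levels of the markers was not tested.

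**Figure D5:**
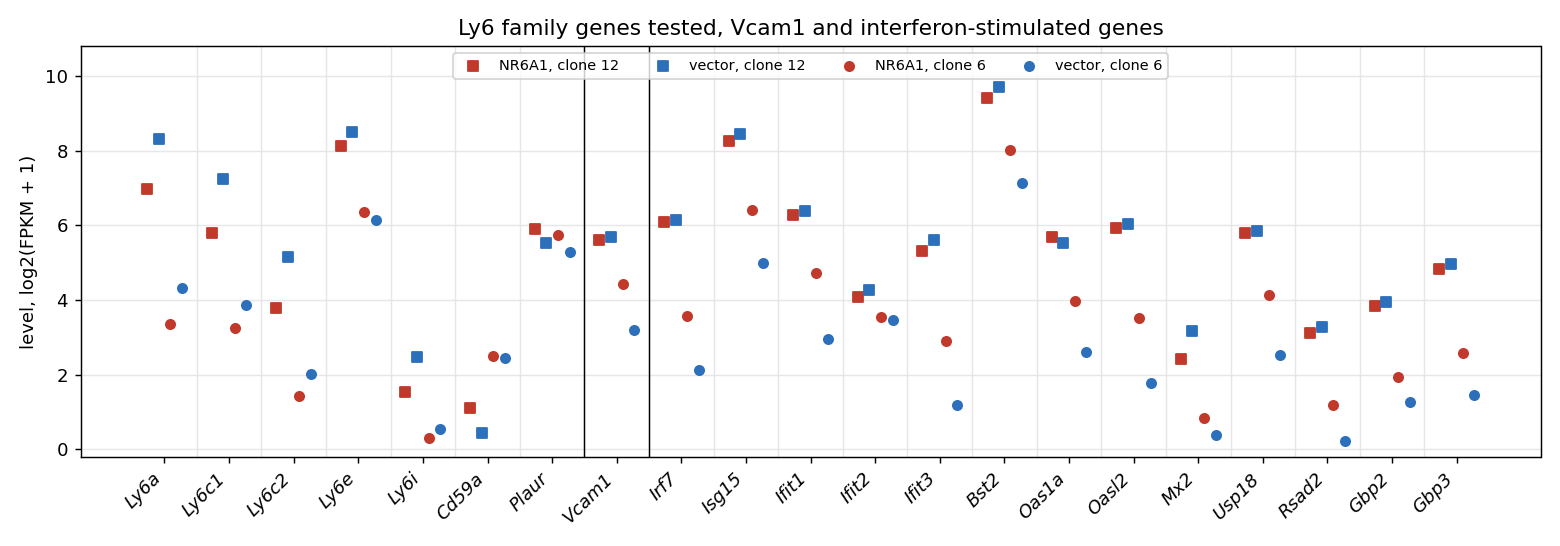
Level as log2(FPKM + 1) on the vertical axis of the 7 Ly6 family genes tested, of Vcam1 and of 13 interferon-stimulated genes, in the NR6A1 (red) and vector (blue) libraries of clone 12 (squares) and clone 6 (circles). In Ly6a, Ly6c1, Ly6c2 and Ly6i the red point lies below the blue one in both clones, while Vcam1 and the interferon genes shown have their lowest point in the vector library of clone 6.

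For the PDGF receptors, all 4 ligand genes were tested and 3 lay lower with NR6A1 in each clone, as did 29.4% of all genes, with none called and a median log2 difference of -0.79. Pdgfa, which encodes the main ligand of PDGF receptor alpha, had 17.1 and 20.4 FPKM with NR6A1 in clone 12 and clone 6, against 26.9 and 64.2 FPKM with vector (limma adjusted p = 0.438). Pdgfc, another ligand of that receptor, had 13.4 and 14.2 FPKM with NR6A1, against 11.3 and 17.5 FPKM with vector. Pdgfd, a ligand of PDGF receptor beta, was called lower in clone 12 (log2 difference -1.81 ± 0.14, SE, limma adjusted p = 0.0147), at 1.68 and 7.26 FPKM with NR6A1 and 2.26 and 11.9 FPKM with vector. Pdgfb, the other ligand gene of that receptor, was higher in clone 12 with either virus. It had 0.444 and 0.0517 FPKM with NR6A1 and 3.22 and 0.749 FPKM with vector, and was not called in either comparison.

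Of 15 partners of endoglin, 12 were tested, 3 higher and 5 lower with NR6A1 in both clones (28.9% and 29.4% of all genes), with none called and a median log2 difference of -0.05. Acvrl1, the type I receptor that endoglin serves in endothelium, was at 0.166 FPKM or less, so abundant Eng stood beside almost none of it. Tgfbr2, the type II TGF-beta receptor, was called higher in clone 12 (1.16 ± 0.08, SE, limma adjusted p = 0.0138), at 34.2 and 15.3 FPKM with NR6A1 and 26.6 and 10.9 FPKM with vector. Tgfb1, Acvr1 and Smad9 were called lower in clone 12, 3 of 12 where 10.5% of all genes were.

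Beside Nt5e, 5 of 12 genes of extracellular adenosine were tested, with none called by NR6A1. The adenosine transporter gene Slc29a1 was the most abundant, and lay between 204 and 261 FPKM in the 4 libraries. Entpd1, which encodes CD39 and makes the AMP that CD73 uses, had 0.682 FPKM in clone 12 with NR6A1 and 0.609 FPKM with vector, and 0.00103 FPKM or less in clone 6. Enpp1, which makes AMP and pyrophosphate from ATP, was called higher in clone 12 (1.26 ± 0.27, SE, limma adjusted p = 0.0471), and Adk, adenosine kinase, lower.

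Around CD44, 8 of 13 genes of hyaluronan were tested and none was called by NR6A1. Has2, the hyaluronan synthase of mesenchyme, had 4.03 and 4.01 FPKM with NR6A1 in clone 12 and clone 6, against 3.31 and 6.06 FPKM with vector. Ezr, a linker between CD44 and actin, was called higher in clone 12 (1.37 ± 0.10, SE, limma adjusted p = 0.0143), at 76.7 and 32.4 FPKM with NR6A1 and 91.9 and 31.4 FPKM with vector. Msn and Rdx, its relatives, were abundant in every library (73.1 FPKM or more) and were not called. Layn, another hyaluronan receptor, was called higher in clone 12 (0.86 ± 0.18, SE, limma adjusted p = 0.0475).

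Of 13 adhesion molecules and partners of VCAM-1, ALCAM and MCAM, 4 were tested and none was called by NR6A1. Ncam1, the neural cell adhesion molecule, had 23.2 and 15.5 FPKM with NR6A1 in clone 12 and clone 6, against 17.8 and 11.2 FPKM with vector, and was called higher in clone 12. Itgb7, an integrin subunit that can pair to bind VCAM-1, was called higher in clone 12 as well (2.66 ± 0.24, SE, limma adjusted p = 0.0179). Lama4, a laminin chain that binds MCAM, was called lower (-2.52 ± 0.19, SE, limma adjusted p = 0.0142), at 0.0675 and 5.88 FPKM with NR6A1 and 0.0297 and 4.26 FPKM with vector. Itga4, the alpha chain of VLA-4, was at 0.00841 FPKM or less and the ALCAM ligand gene Cd6 at 0.0823 FPKM or less. Itga9, the alpha chain of another integrin that binds VCAM-1, had 0.0411 and 0.838 FPKM with NR6A1 in clone 12 and clone 6, against 0.0887 and 1.66 FPKM with vector. Icam1, a relative of Vcam1, was at 0.223 FPKM or less.

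The stromal antigens outside the 10 markers held 1 gene that passed with NR6A1 once short RNA genes were left out. Mme, which encodes neprilysin (CD10), had 4.30 and 2.62 FPKM with NR6A1 in clone 12 and clone 6, against 14.5 and 19.8 FPKM with vector (-2.03 ± 0.26, SE, limma adjusted p = 0.0491 without short RNA genes and 0.232 with them). Between clones 4 of the 11 were called, all lower in clone 12 (Cd9, Cd63, Cd200 and Cd248; 10.5% of all genes were lower), and the median log2 difference was -0.37.

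The 2 markers whose levels spanned more than 2 log2 units were set against every other gene tested except short RNA genes, by the distance between their 4 centred log2 values. Nearest to Ly6a were Tmem176a, Chst1 and Ly6c1, at distances of 0.849, 0.851 and 0.881 log2 units. Nearest to Vcam1 were D8Ertd82e, Dhx58 and Gbp6, at 0.215, 0.236 and 0.245 log2 units. Over 4 libraries such a likeness is a description only. Between clones, leaving out short RNA genes added, among the listed genes, calls for Tgfbr3, Ada and Itga5 (higher in clone 12) and for Tgfb3, Itgav and Pparg (lower).

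Without a stated strand setting, some marker values may hold reads of a gene on the opposite strand. In GENCODE M21 the exons of Eng overlap Fpgs, which had 33.1 and 34.8 FPKM with NR6A1 in clone 12 and clone 6 and 32.5 and 30.3 FPKM with vector, and those of Vcam1, Mcam and Pdgfra overlap antisense RNA genes that the table does not list.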

How the data were processed

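Polyadenylated RNA of 4 libraries was sequenced with a standard Illumina preparation, per the labels' protocols. The authors deposited FPKM, 1 value per gene symbol and library. TopHat 1.2.0, Cufflinks 1.0.3 and the build mm9 are named in the submitters' processing notes. Which annotation, filters and strand setting they used is not given in the sources used here. Cufflinks divides by an effective length, so a few reads on a very short gene give a large FPKM.

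Values were tested as log2(FPKM + 1) (11346 genes whose mean over the libraries reached 1 FPKM) with limma 3.58.1 in R 4.3.3 (two-sided, mean-variance trend, virus and clone as terms, Benjamini-Hochberg over all genes tested, threshold 0.05), which leaves 1 residual degree of freedom. Each line received both viruses, per the labels, so clone is a block. Same-clone deviations correlated across genes with r = 0.628, or 0.873 without short RNA genes. Cultures are not stated to be repeated. For the virus, p-values therefore rest on how far its difference varied between the 2 lines. They also rest on a variance prior drawn from all genes tested (2.9 degrees of freedom). Between clones, p-values set the difference against its variation over the 2 viruses and the same prior. They measure no spread among lines or among cultures of a line. The fit was tested on simulated data with the same noise for every gene and without short RNA genes, unlike these data. Of the tested genes 196 were short RNA genes by symbol (snoRNA, snRNA, scaRNA and microRNA).

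Depth was inferred from low values of 1818 genes with 1 annotated transcript and a long one in GENCODE M21. Under 10 inferred reads, 50.3% to 53.2% of values came within 0.1 of a whole number, where chance gives 20% at a fixed depth. Depth and a length correction were chosen in each library to make this share largest, so chance would give more than 20% here. The depths are therefore rough, and count models were not used. Counting intervals were not computed.

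The named genes were the 10 markers, and of each other list those called, with or without short RNA genes, or otherwise up to 3 of the highest mean; any other gene was named with its values known. Of the called interferon genes, 1 is not reported here by name. The members and lists were chosen with earlier results of these data known. Alternatives covered pseudocounts, filters, scalings, priors, thresholds, model terms and each library left out. Sequences and symbols came from RefSeq GRCm38.p6, a later build than mm9.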

Additional observations from a re-analysis of the deposited data

Results flagged for a closer look

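For 4 markers the NR6A1 library lay above the vector library in 1 clone and below it in the other, and with 1 library per line and virus these differences between the clones were not tested. Vcam1 differed by -0.08 in clone 12 and 1.25 in clone 6 (log2, NR6A1 minus vector), the widest gap of the 4. Pdgfrb differed by -0.02 in clone 12 and 0.28 in clone 6, Eng by -0.12 and 0.04, and Cd44 by 0.09 and -0.04.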

How the results depend on the processing

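Of 97 marker values for NR6A1 against vector refitted with 4 libraries, 96 kept their direction and side of the threshold, and 1, Ly6a without short RNA genes, passed where it had not. Between clones 86 of 97 did so, 9 lost their call and 2 (Eng and Nt5e at a threshold of 0.1) passed. No direction turned in these fits. With 1 library left out, the 2-term model gives the remaining pair's difference, a value with no test, so Vcam1, Pdgfrb, Eng and Cd44 take the sign of the clone that remains. Fits that left out a library without the block turned Ly6a to 0.66 and 0.85 without the clone 6 NR6A1 and clone 12 vector library, against -2.95 and -3.14 without the others.

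For NR6A1 against vector, limma called 4 genes, 7 with a pseudocount of 5, 2 with no filter, 51 without short RNA genes, 38 with a robust prior and 25 at a threshold of 0.1. It called 0 with any 1 library left out and no replicate block (96 to 286 at an unadjusted p under 0.05). It called 0 markers, or 1 without short RNA genes. Between clones it called 2490 genes, 1581 without the variance trend, 4163 at a threshold of 0.1, 0 with no filter (5360 at an unadjusted p under 0.05) and 41, 64, 110 or 889 with 1 library left out and no replicate block, which are 2 changes at once. It called 4 markers, 0 with no filter, 2 without the replicate block and 0 to 1 with both the block and 1 library left out. Without the replicate block the NR6A1 calls stayed at 4 genes and 0 markers.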

Other observations

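Lineage genes also set the lines apart. Of 7 osteoblast genes tested, 6 were called lower (Sp7, Runx2, Bglap, Ibsp, Alpl and Col1a1) and 1 higher (Phex) in clone 12 than in clone 6, where 10.5% of all genes were called lower and 11.5% higher. Alpl, alkaline phosphatase, had 6.85 and 228 FPKM with NR6A1 in clone 12 and clone 6, against 18.2 and 509 FPKM with vector, and also passed as lower with NR6A1 without short RNA genes (-1.22 ± 0.08, SE, limma adjusted p = 0.0132, and 0.0922 with them). Sp7, the transcription factor of osteoblasts, had 0.294 and 50.6 FPKM with NR6A1 in clone 12 and clone 6, against 0.459 and 120.1 FPKM with vector, and the bone matrix gene Ibsp was listed at 0 in both clone 12 libraries and had 10.4 FPKM with NR6A1 and 61.7 FPKM with vector in clone 6. Of 4 adipocyte genes tested, 3 were called lower in clone 12 (Fabp4, Cebpa and Lpl), and of 3 chondrocyte genes 2 (Col2a1 and Col10a1), against the same 10.5%. The line with more Ly6a, Vcam1 and Cd44 thus held less of most bone, fat and cartilage genes tested, and the relation was not tested beyond these 2 lines.

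Of 5 pericyte and smooth muscle genes tested, 4 were called lower in clone 12 (Des, Acta2, Tagln and Cnn1, where 10.5% of all genes were). The same 4 were higher with NR6A1 in both clones (28.9% of all genes), as was Mcam, but Des by only 0.10 ± 0.14 (log2, SE). Notch3 had opposite signs with NR6A1, at 0.25 in clone 6 and -0.50 in clone 12. Unlike those 4 genes, Mcam was not lower in clone 12, where it differed by 0.23 ± 0.10 and was not called. Tagln, an actin-binding protein gene, had 71.9 and 216 FPKM with NR6A1 in clone 12 and clone 6, against 25.7 and 102 FPKM with vector, and passed without short RNA genes (1.26 ± 0.12, SE, limma adjusted p = 0.0272, and 0.147 with them). The defining pericyte genes Rgs5, Abcc9, Kcnj8 and Cspg4 were at 0.0766 FPKM or less, and the part of these genes in the level of Mcam was not tested.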
